A study of Mus musculus with 6 samples.

Results

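The genes described here are the Rab GTPases, taken as every peak whose nearest gene name starts with Rab and a digit, with names containing "ip", "fip" or "gap" left out. The rule found 422 of 134964 peaks (0.313%) in 6 peak lists, and 47 of 14930 gene names. Of these names 46 are Rab GTPases, and the remaining one, Rab3il1, encodes a Rab exchange factor-like protein that the rule keeps. RefSeq (GRCm38) holds 59 protein-coding Rab genes, of which 46 had a peak in at least 1 list. The 13 without one were Rab13, Rab25, Rab26, Rab27a, Rab27b, Rab2b, Rab30, Rab34, Rab36, Rab40b, Rab42, Rab7b and Rab9b. The share of all RefSeq genes with a peak was not counted. In the lists Rab1 stands for RefSeq Rab1a and Rab7l1 for Rab29.

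The lists come from chromatin immunoprecipitation sequencing of bone marrow-derived macrophages (BMDMs) from wild-type mice aged 8 to 12 weeks, C57BL/6 by the study's methods. Marrow cells were grown for 6 days with L929 supernatant, a source of macrophage colony-stimulating factor, and then received no cytokine (control) or IL-4 (20 ng/ml) over 1 h. Binding of C/EBPα and IRF8, which help to set macrophage identity, and of JUNB, a subunit of the AP-1 complex, was mapped in each condition. Each factor and condition had 1 sample, so no difference below has a replicate check or a p-value. The control lists held 24486 (C/EBPα), 37525 (IRF8) and 3940 (JUNB) peaks, and the IL-4 lists 24612, 42076 and 2325. The read depth is unknown, and depth moves both the number of peaks and their scores. The peak score is the deposited caller value with no stated unit, and higher means stronger enrichment. A region without a listed peak fell short of the caller's limit, which does not show absence of binding. No expression values were analysed here, so the cell type was not checked against marker genes.

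Rab proteins are small GTPases that switch between a GTP-bound form on membranes and a GDP-bound form in the cytosol, and each marks a stretch of the membrane traffic of the cell. Exchange factors (GEFs) load GTP, GTPase-activating proteins (GAPs) end the active state, and GDI and prenylation proteins carry the lipid-modified Rab between membranes. In macrophages, Rab5-type proteins act on early endosomes and new phagosomes, Rab7-type proteins on late endosomes and lysosomes, Rab11-type proteins on recycling, and Rab1, Rab2 and Rab6 between the ER and the Golgi.

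The 7 sequences below lie under the peaks to which the results return most often, namely the highest C/EBPα, IRF8 and JUNB peaks at Rab genes, the regions with all 3 factors in both conditions, and the highest peaks gained by C/EBPα and JUNB. Each is the central 200 bp of the peak, or the whole peak where that was shorter, on the plus strand of mm10, and capitals mark matches to the motifs searched.
Rab1, chr11:20169110-20169309, intergenic, highest C/EBPα peak in both conditions: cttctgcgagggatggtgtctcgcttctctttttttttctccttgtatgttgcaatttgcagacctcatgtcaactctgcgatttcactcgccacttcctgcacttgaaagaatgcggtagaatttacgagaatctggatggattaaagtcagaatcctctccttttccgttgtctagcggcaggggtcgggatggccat
Rab7, chr6:88033585-88033784, highest IRF8 peak in both conditions, overlapping GGAANNGAA and TTCNNNNGAA matches and then a GAAANNGAA match: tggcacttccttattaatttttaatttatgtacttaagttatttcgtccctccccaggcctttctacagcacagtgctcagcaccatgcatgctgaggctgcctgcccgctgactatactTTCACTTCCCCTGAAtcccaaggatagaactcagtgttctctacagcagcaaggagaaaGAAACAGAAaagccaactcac
Rab3c, chr13:110185086-110185285, intron of Rab3c, highest JUNB peak in control, TTGCNNAA match: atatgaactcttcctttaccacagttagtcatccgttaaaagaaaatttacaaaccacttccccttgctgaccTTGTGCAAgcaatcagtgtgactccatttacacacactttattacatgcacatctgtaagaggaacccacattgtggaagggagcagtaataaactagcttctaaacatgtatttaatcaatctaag
Rab11a, chr9:64564349-64564548, intron of Megf11, highest JUNB peak after IL-4, AP-1 match: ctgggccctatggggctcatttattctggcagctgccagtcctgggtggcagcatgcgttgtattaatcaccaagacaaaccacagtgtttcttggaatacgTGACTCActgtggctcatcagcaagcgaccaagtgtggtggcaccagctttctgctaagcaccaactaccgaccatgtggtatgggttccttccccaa
Rab17, chr1:90975149-90975318, intergenic, JUNB peak of a region with all 3 factors in both conditions, AP-1 match: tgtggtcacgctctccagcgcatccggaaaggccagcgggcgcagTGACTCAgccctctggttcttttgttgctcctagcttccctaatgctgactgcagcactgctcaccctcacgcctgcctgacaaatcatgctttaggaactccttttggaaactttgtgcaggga
Rab8b, chr9:66888065-66888264, intron of Rab8b, highest gained C/EBPα peak, TTCNNNNGAA match: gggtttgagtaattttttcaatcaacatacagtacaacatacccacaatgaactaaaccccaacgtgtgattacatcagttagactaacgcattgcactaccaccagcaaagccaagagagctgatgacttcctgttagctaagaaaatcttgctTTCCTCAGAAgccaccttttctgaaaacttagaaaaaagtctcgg
Rab20, chr8:11463774-11463937, intron of Rab20, the gained JUNB peak, AP-1 match: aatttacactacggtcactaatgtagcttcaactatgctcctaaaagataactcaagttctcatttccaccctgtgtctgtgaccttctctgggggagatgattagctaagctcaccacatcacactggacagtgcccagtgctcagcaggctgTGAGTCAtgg

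C/EBPα and IRF8 peaks lay near most of the 47 Rab names, whereas JUNB peaks lay near few of them, as over all gene names. Over both conditions, 38, 46 and 9 of the 47 Rab names had a C/EBPα, IRF8 and JUNB peak. Of all 14930 names, 10254, 14114 and 3188 did. Both totals hold only names with a peak in at least 1 list, so the 13 Rab genes without a peak are left out. C/EBPα had 82 Rab peaks at 35 gene names in control and 85 at 38 names after IL-4. IRF8 had 112 peaks at 38 names in control and 126 at 46 names after IL-4. JUNB had 11 peaks at 8 names and 6 peaks at 6 names. These counts were 0.335% and 0.345% of the C/EBPα lists, 0.298% and 0.299% of the IRF8 lists, and 0.279% and 0.258% of the JUNB lists. At 32 names a peak was present in all 4 C/EBPα and IRF8 lists. Rab39b, a Golgi Rab, was the only name with C/EBPα peaks and no IRF8 peak, while 9 names had IRF8 peaks and no C/EBPα peak (Rab12, Rab15, Rab1b, Rab22a, Rab23, Rab3a, Rab3b, Rab4b and Rab6b). The highest IRF8 score among those 9 names was 32.9, in control, near Rab22a, an early endosomal Rab.

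**Figure D1:**
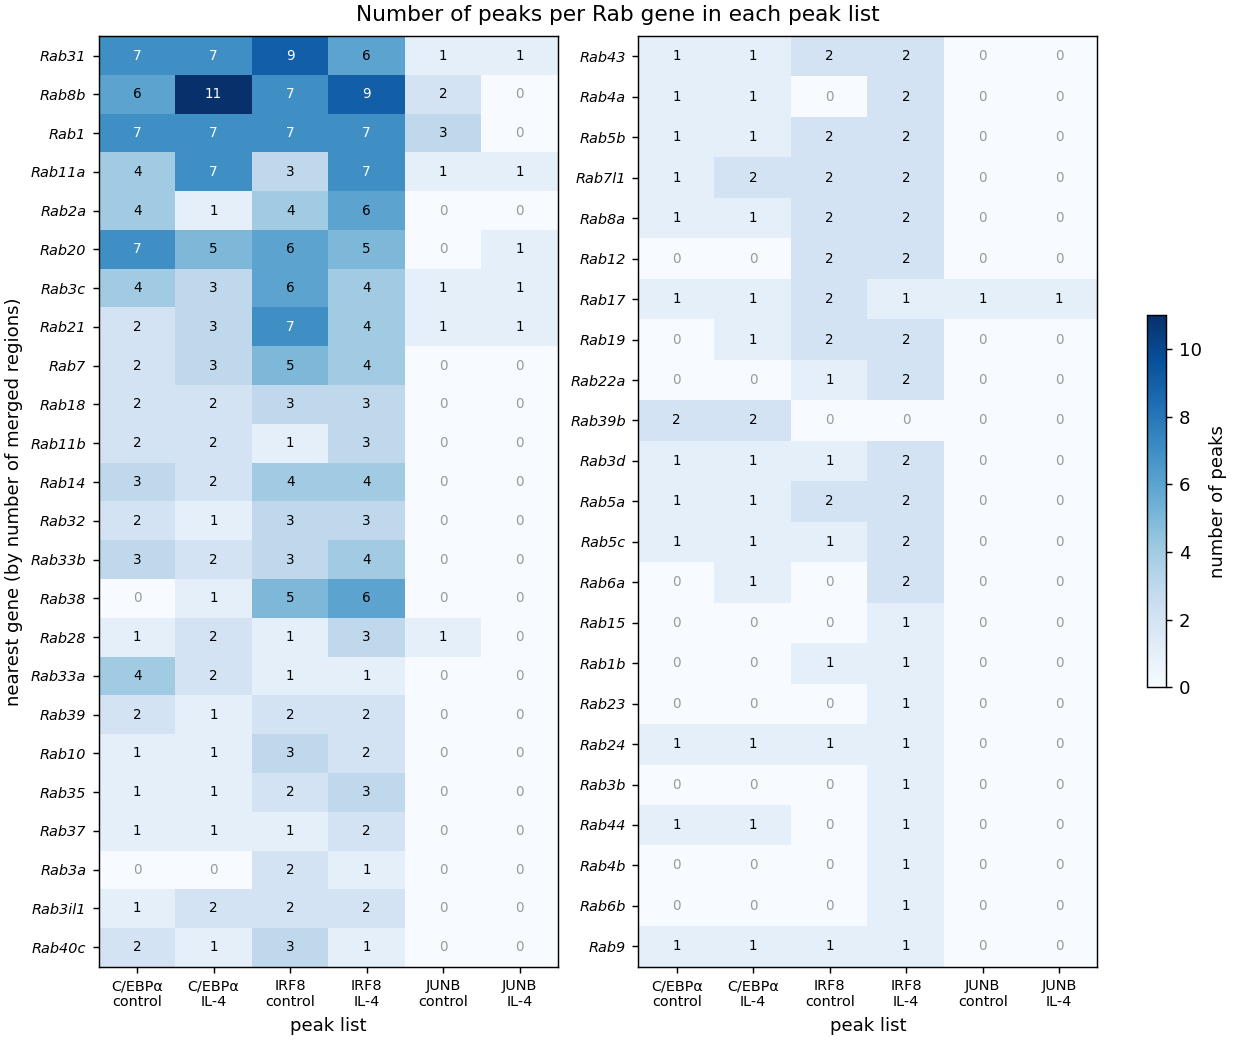
Number of peaks (cell value and shade) for each of the 47 Rab gene names (rows, ordered by merged regions, continued in the right panel) in each of the 6 peak lists (columns). Rab31, Rab8b, Rab1 and Rab11a carry the most regions, and only 9 names have a JUNB peak.

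Every Rab name with a C/EBPα or IRF8 peak in control also had a peak of that factor after IL-4, though not always at the same site. At Rab37, Rab4a and Rab8a the 1 control C/EBPα peak was lost and another site gained, and at Rab3a both control IRF8 peaks were lost and 1 gained. For IRF8, 8 names had a peak only after IL-4 (17.4% of 46, against 13.8% of all gene names with an IRF8 peak) and 0 only in control (against 5.75%). These 8 were Rab15, Rab23, Rab3b, Rab44, Rab4a, Rab4b, Rab6a and Rab6b, and their 10 peaks scored low, from 2.14 to 7.13 with a median of 3.97. For C/EBPα, 3 names (Rab19, Rab38 and Rab6a) had a peak only after IL-4 (7.89% of 38, against 9.04%), and 0 only in control (against 9.12%). For JUNB, 3 names (Rab1, Rab28 and Rab8b) had a peak only in control (33.3% of 9, against 42.0% of all names) and 1, Rab20, only after IL-4 (11.1%, against 14.8%). Rab names had a median of 3 C/EBPα and 4 IRF8 peaks over both lists, and all names a median of 3 for each.

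Peaks at Rab genes lay mostly in introns. In control, 67.1% of C/EBPα Rab peaks were intronic (95% Wilson interval 56.3 to 76.3, 82 peaks), against 46.2% of all C/EBPα peaks. For IRF8 the values were 59.8% (50.6 to 68.4, 112 peaks) and 45.6%. Fewer Rab peaks were intergenic, with 20.7% (13.4 to 30.7) for C/EBPα against 43.0% of the list, and 24.1% (17.1 to 32.8) for IRF8 against 43.0%. The IL-4 lists gave 63.5% and 59.5% intronic and 20.0% and 25.4% intergenic Rab peaks for C/EBPα and IRF8. All intervals here cover counting error only and treat peaks as independent, although peaks of 1 gene, and both lists of a factor, share sites. The 10 genes with most regions weighed on the intronic share. Without them it was 59.5% (43.5 to 73.7) for C/EBPα and 56.4% (43.3 to 68.6) for IRF8 in control, intervals that reach the shares of all peaks, whereas the intergenic share stayed at 18.9% (9.48 to 34.2) and 18.2% (10.2 to 30.3).

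**Figure D2:**
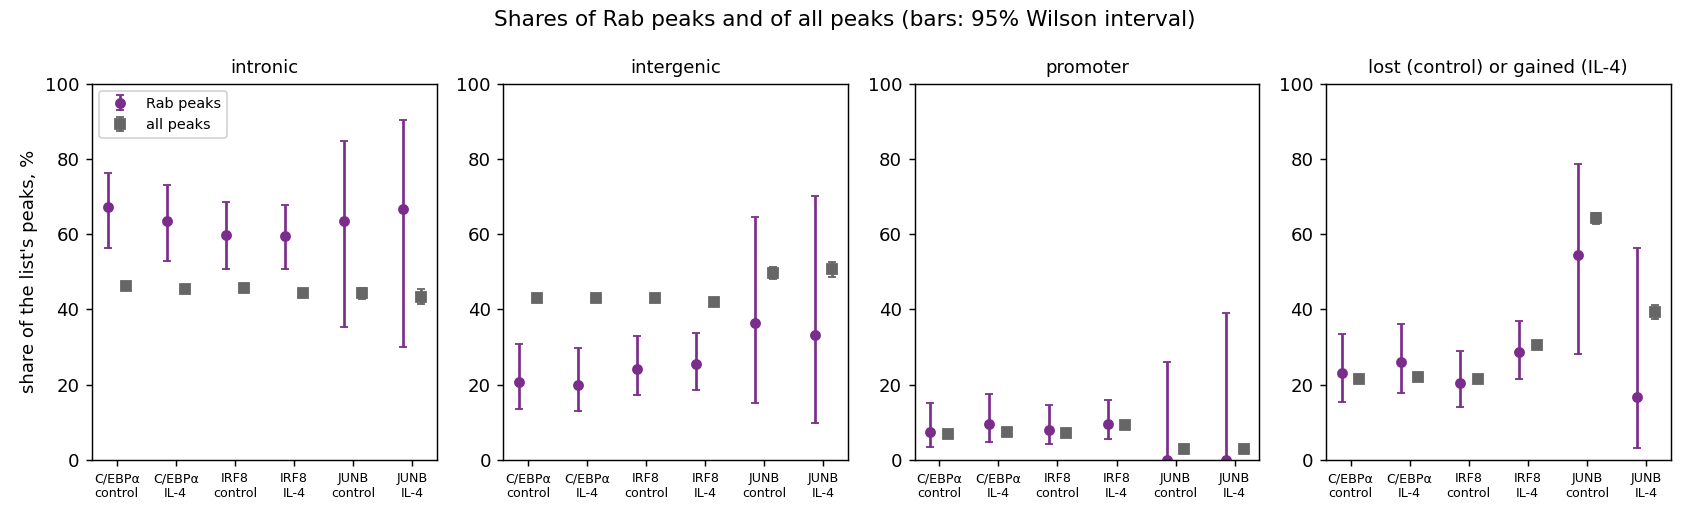
Share of peaks (y axis, percent) that were intronic, intergenic, promoter, or present in only 1 condition, for Rab peaks (purple circles) and all peaks (grey squares) in each of the 6 lists, with 95% Wilson intervals. Rab peaks of C/EBPα and IRF8 are more often intronic and less often intergenic than all peaks, whereas the promoter and changed shares have intervals that hold the value of all peaks.

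Rab peaks were also nearer to a transcription start site (TSS). The median distance was 9046 bp for C/EBPα in control against 20235 bp for its whole list, and 9446 bp for IRF8 against 20951 bp. After IL-4 the medians were 13147 and 10464 bp, against 19445 and 19977 bp. JUNB differed, with medians of 34969 bp in control and 25981 bp after IL-4 against 26144 and 27046 bp, over 11 and 6 peaks. Of the 262 intronic Rab peaks in all lists, 234 (89.3%) lay in an intron of the Rab gene itself. The others lay in neighbours, namely 15 in Megf11 next to Rab11a, 7 in Col4a2 next to Rab20, 3 in Cpne5 next to Rab44 and 1 in Bicdl1 next to Rab35, and the transcript of 2 peaks next to Rab14 was not matched. The nearest TSS is thus a naming rule, and a peak 173227 bp from Rab11a may bear on another gene.

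Promoter binding was found at 17 Rab names, for C/EBPα and IRF8 only. C/EBPα had 6 promoter peaks in control (7.32%, 3.40 to 15.1, against 6.88% of the list) and 8 after IL-4 (9.41%, 4.85 to 17.5, against 7.35%). IRF8 had 9 (8.04%, 4.29 to 14.6, against 7.25%) and 12 (9.52%, 5.53 to 15.9, against 9.16%). JUNB had 0 of 11 and 0 of 6, which allows shares of up to 25.9% and 39.0%, against 2.79% and 2.80% of its lists. With the annotated promoter class, each Rab interval held the share of its list. Within 2000 bp of a TSS lay 23.2% of IRF8 Rab peaks in control (16.4 to 31.8), above the 14.1% of its list, and 22.2% after IL-4 (15.8 to 30.2), against 16.6%.

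The C/EBPα promoter peaks in control were few but scored above the middle of their class, with a median of 22.4 (range 15.6 to 37.9) against 9.26 for all C/EBPα promoter peaks. The 6 genes were Rab1, Rab7l1, Rab21, Rab5b, Rab40c and Rab43. All 6 were kept after IL-4 (100%, 61.0 to 100), against 77.6% of all C/EBPα promoter peaks in control. Of all control C/EBPα peaks, 85.0% and 99.7% were kept in the middle and highest-scoring tertiles, which hold these 6. The C/EBPα score went from 37.9 to 31.7 at Rab1 (ER to Golgi traffic), from 29.0 to 27.0 at Rab7l1 (trans-Golgi and lysosome), and from 22.9 to 26.0 at Rab21 (early endosome and integrin traffic). It went from 21.98 to 16.9 at Rab5b (early endosome), from 21.7 to 18.9 at Rab40c (a Rab with a SOCS box) and from 15.6 to 12.98 at Rab43 (Golgi). Thus 5 of the 6 scored lower and 1 higher after IL-4, by less than 2-fold each. Over all C/EBPα pairs 49.7% scored higher after IL-4. The other C/EBPα promoter peaks after IL-4 were low, 4.82 at Rab6a and 3.78 at Rab2a, where the overlapping control peak scored 1.96 and was annotated outside the promoter.

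IRF8 promoter peaks were kept, lost and gained. The highest, at Rab19, went from 29.1 to 30.7. The IRF8 score at Rab5a went from 10.2 to 10.4, at Rab32 (lysosome-related organelles) from 6.36 to 8.63, and at Rab1 from 4.74 to 7.37. At Rab7l1 it went from 7.37 to 17.0, a 2.31-fold rise, and at Rab11b (recycling) it went from 9.06 to 3.77, 0.418 of the control. The IRF8 promoter peaks of Rab21 (10.9), Rab40c (6.81) and Rab20 (2.81) were listed in control only. Those of Rab4b (7.13), Rab37 (4.99), Rab28 (4.66), Rab6a (4.45 and 3.52) and Rab23 (3.97) were listed after IL-4 only. Hence 6 of 9 control promoter peaks of IRF8 were kept (66.7%, 35.4 to 87.9), against 75.7% of all its promoter peaks, and 6 of 12 after IL-4 had a control counterpart (25.4 to 74.6%), against 52.0%.

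Over all lists the Rab peaks merged into 187 regions, of which the 10 names with most regions held 90. Rab31, an endosomal and phagosomal Rab, had 13 regions, Rab8b, which acts in exocytosis, had 12, and Rab1 had 11. Rab11a and Rab2a had 9 each, Rab20 and Rab3c 8 each, Rab21 and Rab7 7 each and Rab18 6. The median was 3 regions per name, and 9 names had 1 region. Across the 47 names the number of regions and the length of the gene had a Spearman correlation of 0.30, a description over genes that share the same libraries.

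**Figure D3:**
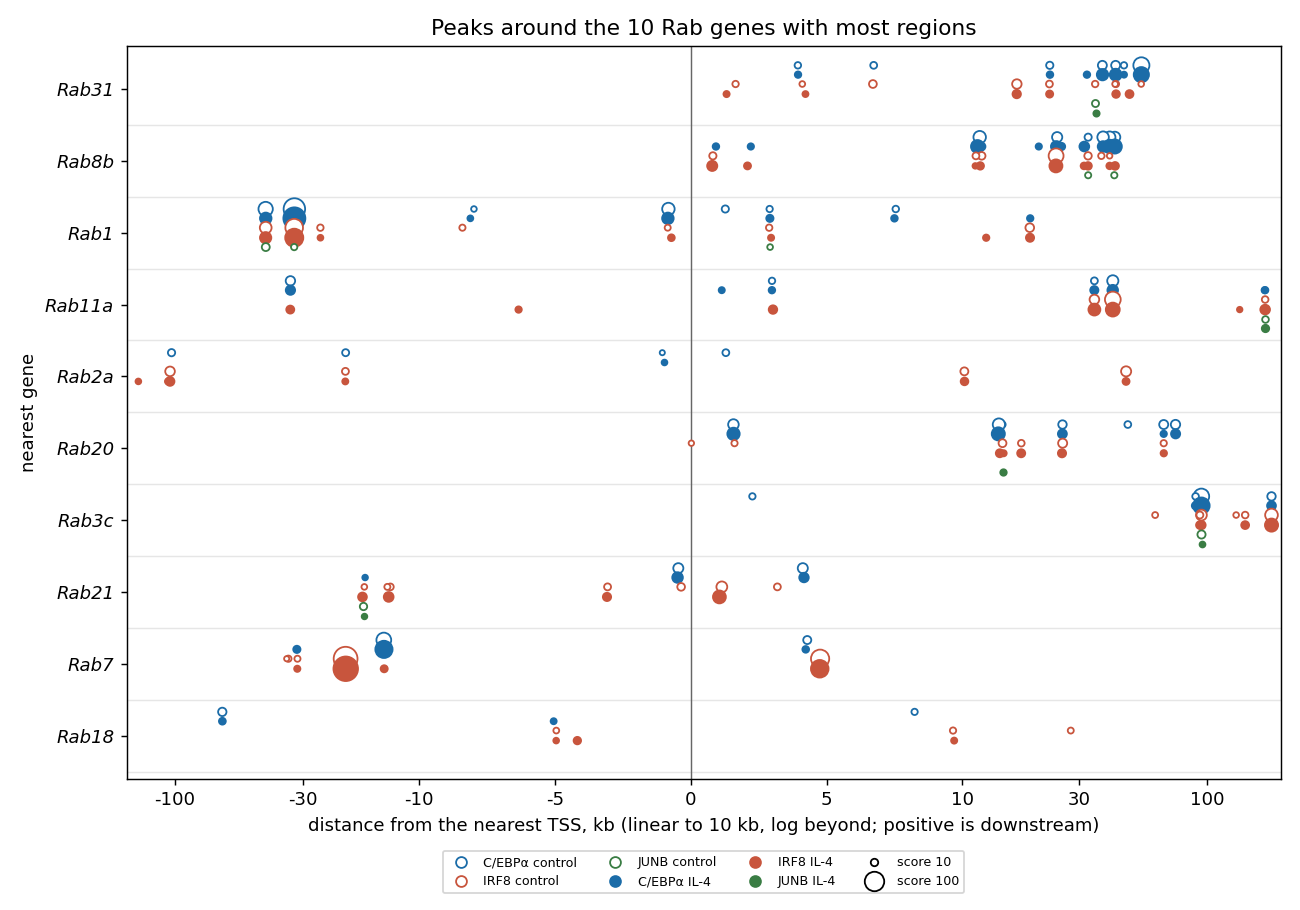
Peaks around the 10 Rab genes with most regions. The x axis is the distance from the nearest TSS in kb (linear to 10 kb, logarithmic beyond), open circles are control and filled circles IL-4 peaks, colours are factors and the circle area follows the peak score. The strongest Rab1 and Rab7 peaks lie upstream of the annotated start, while the Rab31, Rab8b and Rab3c peaks lie downstream of it, within the gene.

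The highest C/EBPα peak at a Rab gene lay upstream of Rab1, in a region at chr11:20168957-20169449, -32396 bp from the TSS. Its C/EBPα score was 123 in control and 129 after IL-4, its IRF8 score 81.1 and 85.9, and its JUNB score 5.73 in control with no JUNB peak after IL-4. A neighbouring region at chr11:20158944-20159412 went from 51.9 to 31.6 in C/EBPα score and from 33.1 to 30.4 in IRF8 score, and its JUNB peak, of 12.1, was again listed in control only. C/EBPα and IRF8 were therefore listed in both conditions at both sites, and JUNB in control only.

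Rab7, the late endosomal Rab, had the highest IRF8 peak. The region chr6:88033447-88033870 scored 153 in control and 162 after IL-4 for IRF8 and had no C/EBPα peak. It was annotated as intergenic at -19968 bp, but it lies inside the longer RefSeq span of Rab7, chr6:87999106-88045270. Closer to the start, chr6:88027416-88027827 scored 55.5 and 77.3 for C/EBPα, with an IRF8 peak of 8.54 after IL-4 only. In an intron, chr6:88008755-88009126 scored 87.3 and 80.9 for IRF8 and had no C/EBPα peak, and the adjacent region chr6:88009179-88009624 scored 12.7 and 7.10 for C/EBPα and had no IRF8 peak. The strongest sites of the 2 factors at Rab7 were thus different ones.

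The next IRF8 peaks were at Rab24 and Rab5c. The region at the end of Rab24, chr13:55318315-55318967, scored 107 in control and 145 after IL-4 for IRF8, and 9.02 and 10.2 for C/EBPα. Rab24 is linked to autophagosomes. The intronic region chr11:100735447-100736028 in Rab5c, an early endosomal Rab, scored 103 and 138 for IRF8 and had no C/EBPα peak.

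Among the C/EBPα peaks, a region in the Rab31 intron at chr17:65718549-65718968 scored 66.6 in control and 59.2 after IL-4, with an IRF8 peak of 3.55 in control only. Another region, chr13:110184966-110185342 in an intron of Rab3c, a Rab of regulated secretion, carried all 3 factors in both conditions. Here C/EBPα went from 61.8 to 70.1, IRF8 from 27.0 to 14.3 and JUNB from 13.1 to 4.15, so C/EBPα was higher and the other two lower after IL-4.

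Over all Rab peaks, IRF8 scored lower than its list in control. The median IRF8 score was 7.71 for Rab peaks against 10.3 in control, and 8.74 against 9.61 after IL-4. For C/EBPα the medians were 11.9 against 11.2 and 10.2 against 11.2. For JUNB they were 7.03 against 7.88 in control, and 4.80 against 6.21 after IL-4.

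After IL-4 most C/EBPα and IRF8 peaks at Rab genes were kept, in shares near those of all peaks. Of the control peaks, 76.8% for C/EBPα (66.6 to 84.6, 82 peaks) and 79.5% for IRF8 (71.1 to 85.9, 112 peaks) overlapped an IL-4 peak of that factor by at least 1 bp. C/EBPα lost 19 Rab peaks (23.2%, against 21.4% of its list) and gained 22 (25.9%, against 22.0%). IRF8 lost 23 (20.5%, against 21.4%) and gained 36 (28.6%, against 30.4%). These shares are near the background, so the counts say nothing particular about Rab genes.

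For C/EBPα and IRF8 the kept share rose with the score of the peak. Among control peaks in the lowest-scoring tertile of their list, 54.2% of 24 C/EBPα and 55.6% of 45 IRF8 Rab peaks were kept (51.3% and 52.3% of all such peaks). In the middle tertile, 24 of 32 C/EBPα Rab peaks (75.0%, against 85.0% of all) and 35 of 38 IRF8 Rab peaks (92.1%, against 84.0%) were kept. In the highest-scoring tertile, 26 of 26 and 29 of 29 were kept, as were 99.7% and 99.4% of all. Of the IRF8 Rab peaks after IL-4, 22 of 45 in the lowest, 36 of 49 in the middle and 32 of 32 in the highest tertile had a control counterpart (36.9%, 73.9% and 97.9% of all). The median score was 6.60 for lost and 6.07 for gained C/EBPα Rab peaks, and 5.33 and 4.99 for IRF8. Among the 36 gained IRF8 peaks, 7 had the same score, 3.97.

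Scores of paired peaks, in which a control peak was joined to the IL-4 peak it overlapped most, moved little in the median. The log2 ratio of IL-4 to control had a median of -0.04 for C/EBPα (95% order-statistic interval -0.18 to 0.18, 62 pairs) and 0.09 for IRF8 (-0.02 to 0.29, 88 pairs), against 0.00 and 0.08 over all pairs. For C/EBPα, 1 Rab pair rose by 2-fold or more (1.61%, against 7.72%) and 4 fell by as much (6.45%, against 6.56%). For IRF8, 10 rose (11.4%, against 11.3%) and 7 fell (7.95%, against 7.96%). The shares were near the background except for C/EBPα rises, which rest on 1 pair of 62.

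**Figure D4:**
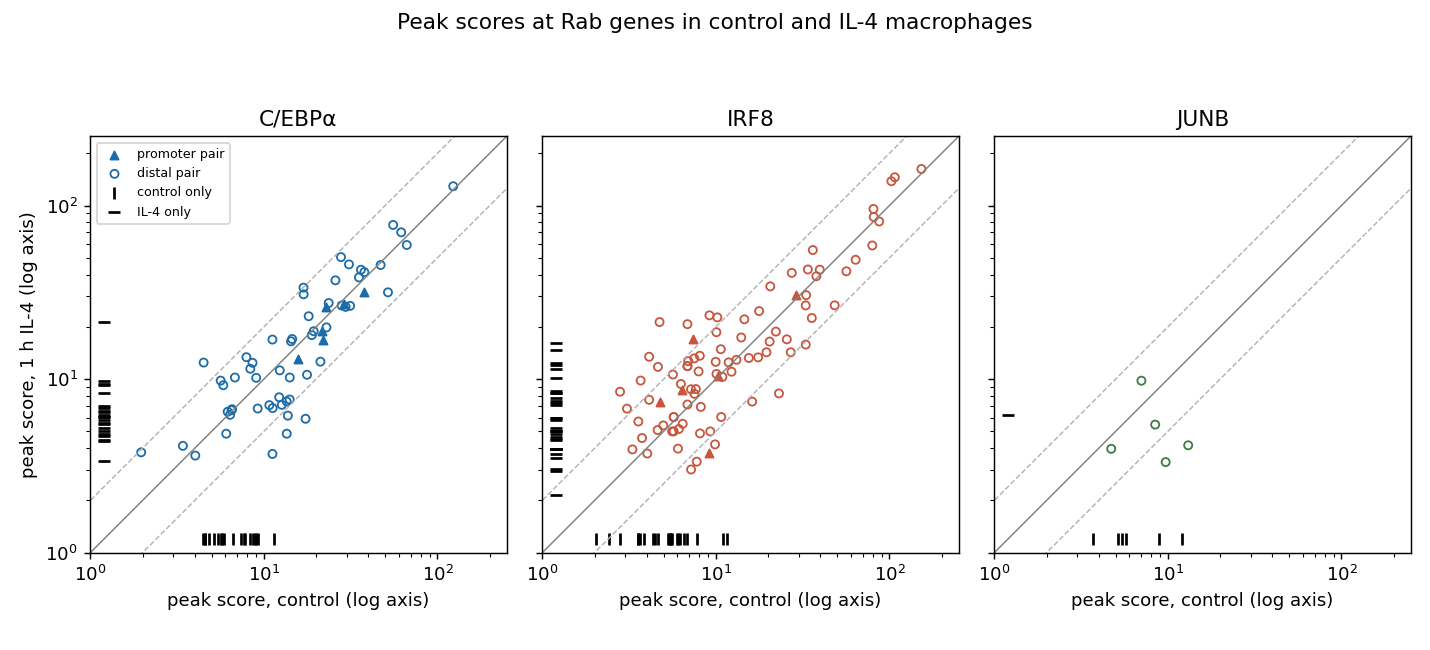
Peak score in control (x) against 1 h IL-4 (y), both on log axes, for Rab peaks paired within each factor (triangles, promoter; circles, distal), with peaks of 1 condition only as ticks along the axis of the condition they were found in. The solid line marks equal scores and the dashed lines 2-fold differences. High-scoring C/EBPα and IRF8 pairs lie near the line of equality, the unpaired peaks score 21.3 or less, and 4 of the 5 JUNB pairs lie below it.

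The C/EBPα pair that rose was in an intron of Rab35, a recycling Rab, from 4.49 to 12.4 (2.77-fold). The IRF8 peak of that region, chr5:115635436-115635940, rose as well, from 10.2 to 22.7 (2.23-fold), while a neighbouring IRF8 peak in the same intron fell from 16.2 to 7.41. The C/EBPα falls were at Rab39 (11.2 to 3.70), at Rab20 within Col4a2 (17.4 to 5.90), at Rab3d (13.5 to 4.84) and at Rab3il1 (13.7 to 6.15). The highest C/EBPα peaks listed in control only were at Rab40c (11.5), Rab2a (9.26) and Rab1 (8.98).

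The largest IRF8 rises lay around Rab21, Rab5b and Rab11a. Upstream of Rab21 an IRF8 peak went from 4.73 to 21.3 (4.50-fold). It spans a second control peak of 7.21, so the ratio rests on which of both was paired. At Rab5b 2 IRF8 peaks rose, from 4.12 to 13.4 in the first intron and from 2.80 to 8.45 upstream of the start, at the end of the neighbouring gene Cdk2, while the C/EBPα promoter peak between them went from 21.98 to 16.9. The Rab7l1 promoter peak and its intronic neighbour rose from 7.37 to 17.0 and from 4.63 to 11.8. The largest IRF8 falls were in an exon of Rab2a (23.1 to 8.26), at the Rab11b promoter (9.06 to 3.77) and in an intron of Rab10 (7.19 to 3.01). The highest IRF8 peaks listed in control only were at Rab31 (11.5) and at Rab21 (10.9 at the promoter and 7.82 in an intron).

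The group of recycling Rab genes (Rab11a, Rab11b, Rab12, Rab14, Rab15, Rab35, Rab4a and Rab4b) had 12 IRF8 peaks in control and 23 after IL-4, with 11 of the 23 gained (against 30.4% of all IRF8 peaks) and 0 of the 12 lost (against 21.4%). Rab11a alone gained 4, of 14.8, 12.4, 5.96 and 2.95, Rab11b gained 7.79 and 4.50, and Rab4a gained 2 of 3.97 each. Rab4b (7.13), Rab15 (4.99) and Rab35 (3.97) gained 1 each. For C/EBPα these genes lost 1 of 11 peaks (against 21.4% of all C/EBPα peaks) and gained 4 of 13 (against 22.0%). Of the 4 gained, 3 were at Rab11a (6.06, 5.48 and a lower one). The 12 paired IRF8 peaks of the group had a median log2 ratio of 0.25, against 0.08 over all IRF8 pairs. The groups were drawn up with earlier results of these data known, so the count is a description of these libraries.

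The early endosomal and phagosomal genes (Rab17, Rab20, Rab21, Rab22a, Rab31, Rab5a, Rab5b and Rab5c) went from 30 IRF8 peaks to 24, with 11 of the 30 lost (against 21.4% of all IRF8 peaks) and 5 of the 24 gained (against 30.4%). Rab31 lost 5 (3.55 to 11.5) and gained 2 (12.0 and 5.20), and Rab21 lost 3 and gained 1. The other losses were 2 at Rab20 and 1 at Rab17, and none lay at Rab22a, Rab5a, Rab5b or Rab5c. Of the 11 losses 3 lay within 200 bp of an IL-4 peak without overlapping it, 2 at Rab31 and 1 at Rab21. The 18 paired IRF8 peaks of the group had a median log2 ratio of 0.36, against 0.08 over all IRF8 pairs. The paired peaks thus scored higher in the median, while the group had fewer peaks.

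**Figure D5:**
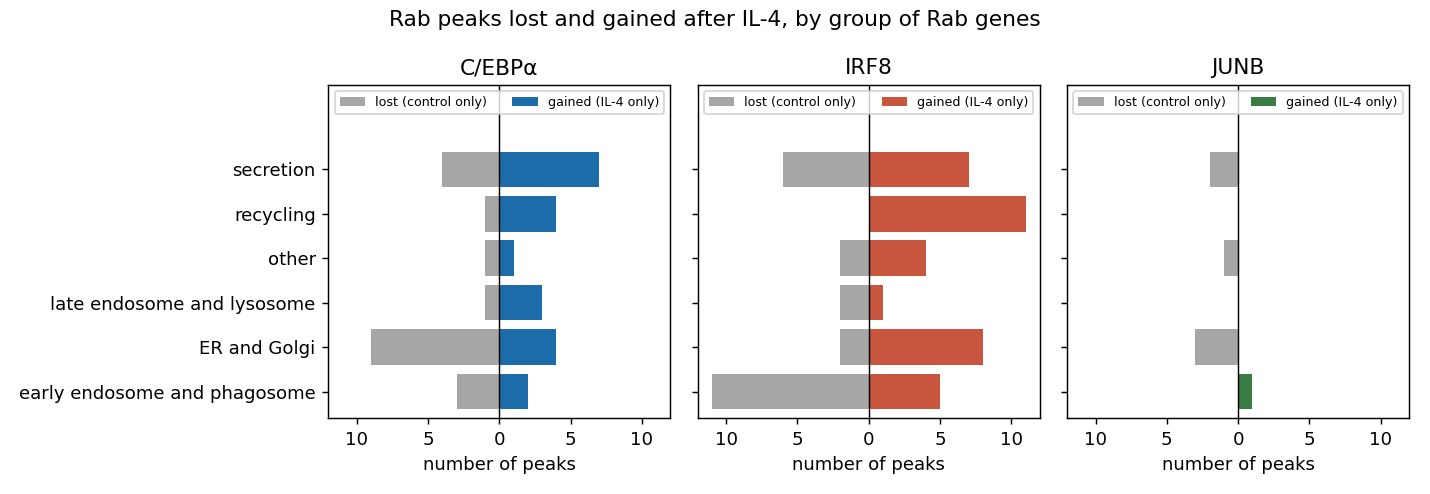
Number of Rab peaks found only in control (grey, to the left) or only after IL-4 (coloured, to the right) for 6 groups of Rab genes and each factor. Recycling genes have 11 gained and 0 lost IRF8 peaks, while early endosomal and phagosomal genes have 5 gained and 11 lost.

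The other groups changed in both directions, and their counts stand against 21.4% lost and 22.0% gained over all C/EBPα peaks and 21.4% and 30.4% over all IRF8 peaks. ER and Golgi genes, which include Rab1, Rab2a, Rab18, Rab33a and Rab33b, lost 9 of 25 C/EBPα peaks and gained 4 of 20, and lost 2 of 25 IRF8 peaks and gained 8 of 31. Rab2a lost 3 of its 4 C/EBPα peaks (9.26, 8.31 and 7.68). Secretory genes, which include Rab8b, Rab10 and Rab3c, lost 4 of 14 and gained 7 of 18 C/EBPα peaks and lost 6 of 22 and gained 7 of 23 IRF8 peaks. Rab8b gained 5 of the 7 C/EBPα peaks. Late endosomal and lysosomal genes (Rab24, Rab32, Rab38, Rab7, Rab7l1 and Rab9) had 17 IRF8 peaks in each condition, with 2 lost and 1 gained, and 7 and 9 C/EBPα peaks.

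Rab8b gave the largest gain of C/EBPα peaks, from 6 to 11. The highest, in an intron at chr9:66888023-66888306, scored 21.3 after IL-4 and had no control peak, and an IRF8 peak of 7.27 was gained over it. It is the highest-scoring gained C/EBPα peak of the Rab genes, and the next, also in Rab8b, scored 9.79. The only C/EBPα peak lost at Rab8b, of 8.91, lay 915 bp from the peak of 21.3, and a JUNB peak of 5.15 was lost in the same region. Within the same gene the region chr9:66877340-66877999 went from 27.8 to 50.4 for C/EBPα, gained an IRF8 peak of 11.5 and lost a JUNB peak of 5.44. The region chr9:66879453-66879795 went from 30.9 to 45.8 for C/EBPα and from 3.07 to 6.75 for IRF8. At chr9:66894952-66895753 C/EBPα scored 23.6 and 27.4, while IRF8 was lower after IL-4, with 56.5 and 41.8. Near the start of the gene an IRF8 peak went from 9.17 to 23.3.

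The changes of both factors were also counted by merged region, where kept means that the factor was listed there in both conditions, whether or not its peaks overlapped. Where a Rab region gained C/EBPα and held IRF8, IRF8 was gained in 3, kept in 10 and lost in 0, and over the genome in 751, 1658 and 204 regions. Of the 18 regions that had lost C/EBPα, 1 had also lost IRF8, 4 had kept it and 1 had gained it, while 12 had no IRF8 peak in either condition. Over the genome the regions that had lost C/EBPα numbered 370, 1650, 313 and 2778 in that order. In 30 regions both were kept.

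JUNB showed 11 Rab peaks in control and 6 after IL-4, beside a fall of its whole list from 3940 to 2325 peaks. Of the 11 control peaks 5 were kept (45.5%, 21.3 to 72.0, against 35.8% of the list). The 6 lost (54.5%, against 64.2%) were 3 at Rab1 (12.1, 5.73 and 3.71), 2 at Rab8b (5.44 and 5.15) and 1 at Rab28 (8.91). The only gained peak (16.7% of 6, against 39.2%) was in the Rab20 intron, with a score of 6.17. Rab20 acts in phagosome maturation.

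The 5 JUNB pairs had a median log2 ratio of -0.63 (range -1.66 to 0.48), against -0.54 over all JUNB pairs. JUNB went from 13.1 to 4.15 at Rab3c, from 9.70 to 3.32 upstream of Rab21, from 8.44 to 5.46 in the Rab31 intron and from 4.71 to 3.96 upstream of Rab17. At Rab11a it went from 7.03 to 9.78, the only rise. None (0) of the pairs rose by 2-fold (against 2.99%) and 2 fell by 2-fold or more (40.0%, against 29.9%). With 5 pairs, JUNB at Rab genes could not be told from JUNB over the genome.

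All 12 regions with JUNB also held C/EBPα or IRF8 in at least 1 condition. Most JUNB regions over the genome held another factor as well. There JUNB was listed alone in 413 of 3915 JUNB regions in control and in 261 of 2312 after IL-4. In control 7 Rab regions held all 3 factors (4.67% of 150 bound regions, against 5.38% over the genome), and after IL-4 5 did (3.14% of 159, against 3.08%). Peaks in a merged region need not all overlap one another. With peaks set to 200 bp around their centre the counts were 7 and 4. The 7 in control were 3 at Rab1 and 1 each at Rab17, Rab28, Rab3c and Rab8b, and the 5 after IL-4 were at Rab11a, Rab17, Rab20, Rab21 and Rab3c. Rab17 and Rab3c were thus the only genes with such a region in both conditions. The Rab17 region, chr1:90974888-90975359, went from 12.3 to 11.2 in C/EBPα score, from 10.7 to 14.9 in IRF8 score and from 4.71 to 3.96 in JUNB score. The Rab20 region, chr8:11463600-11464729, scored 36.2 and 42.6 for C/EBPα and 11.8 and 12.5 for IRF8, and the JUNB peak after IL-4 lies within it. That JUNB peak overlaps an IRF8 peak of 5.26 after IL-4 but not the C/EBPα peak of 42.6. A control C/EBPα peak of 5.16 at the JUNB site was lost.

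In 2 regions where JUNB and IRF8 were listed in both conditions, C/EBPα was listed after IL-4 only. At chr9:64564194-64564864, in the Megf11 intron assigned to Rab11a, IRF8 went from 6.85 to 20.7, JUNB from 7.03 to 9.78, and C/EBPα appeared at 6.06. Upstream of Rab21, IRF8 went from 3.66 to 16.2, C/EBPα appeared at 3.35 and JUNB went from 9.70 to 3.32. There the C/EBPα peak did not overlap the IRF8 peak listed after IL-4. The IRF8 peaks at the Rab21 site were counted as 1 lost and 1 gained, since they lay 14 bp apart without overlap. IRF8 scored higher at both sites after IL-4, whereas JUNB was higher at one and lower at the other.

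C/EBPα and IRF8 shared many Rab regions. In control 48.8% of 80 C/EBPα Rab regions held IRF8 (38.1 to 59.5), against 58.7% over the genome, and after IL-4 58.3% of 84 did (47.7 to 68.3), against 60.9%. Of the IRF8 Rab regions, 35.8% of 109 held C/EBPα in control (27.4 to 45.1, against 38.3%) and 39.8% of 123 after IL-4 (31.6 to 48.7, against 35.5%). Each interval holds the value over the genome.

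The motif shares of the Rab peaks had wide intervals, each of which held the share of its list. Motifs were searched on both strands in the central 200 bp of every peak. They were TGACTCA or TGAGTCA for AP-1, TTGCNNAA for C/EBP, GGAANNGAA for the ETS-IRF composite, GAAANNGAA for an interferon-response type and TTCNNNNGAA for STAT6, where matches of the last 3 can overlap one another. The C/EBP letters were in 36.6% of C/EBPα Rab peaks in control (27.0 to 47.4), against 34.3% of all C/EBPα peaks and 12.5% of IRF8 Rab peaks. The ETS-IRF letters were in 16.1% of IRF8 Rab peaks in control (10.4 to 24.0) and 20.6% after IL-4 (14.5 to 28.5), against 21.2% and 20.0% of all. In C/EBPα Rab peaks they were in 6.10% in control (2.63 to 13.5) and 7.06% after IL-4 (3.28 to 14.6), against 11.6% of each list. AP-1 letters were in 6 of 11 JUNB Rab peaks in control (54.5%, 28.0 to 78.7, against 47.8%) and 4 of 6 after IL-4 (66.7%, against 43.0%).

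STAT6 letters were in 2.44% of C/EBPα Rab peaks in control (0.671 to 8.46) and 4.71% after IL-4 (1.85 to 11.5), against 6.44% and 10.2% of all C/EBPα peaks. For IRF8 they were in 4.46% and 8.73% (4.94 to 15.0), against 6.05% and 8.53%. The gained Rab8b peak shown above holds them once, and the Rab7 IRF8 peak holds them overlapping the ETS-IRF letters. The Rab1 sequence shown above holds none of the motifs searched. A match is a description of letters and not of binding, and letters missing from a 200 bp window say nothing about the factor.

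Most genes listed as acting on Rab proteins had a peak in at least 1 list. Of 29 listed GEFs 28 had a peak, of 35 GAPs 33, of 7 GDI and prenylation genes 6 and of 40 effectors 32. The share of all annotated genes with a peak was not counted, so these counts have no background beside them. In the IRF8 lists the GEFs lost 12 peaks (14.1%, against 21.4%) and gained 32 (30.8%, against 30.4%), the GAPs lost 39 (25.7%) and gained 45 (28.5%), and the effectors lost 36 (27.5%) and gained 35 (27.3%). The GDI and prenylation genes lost 3 of 10 IRF8 peaks and gained 3 of 9 (33.3%). In the C/EBPα lists the GEFs lost 8 (13.8%, against 21.4%) and gained 15 (23.1%, against 22.0%), the GAPs lost 17 (14.7%) and gained 19 (16.1%), and the effectors lost 13 (16.2%) and gained 21 (23.9%). The GDI and prenylation genes lost 4 of 9 C/EBPα peaks (44.4%) and gained 0 of 5. JUNB had 17 GAP peaks in control and 12 after IL-4, 20 and 14 effector peaks, and 1 and 5 GEF peaks. Of these the GAPs lost 10 (58.8%) and gained 5 (41.7%), the effectors lost 11 (55.0%) and gained 5 (35.7%), and the GEFs lost 0 of 1 and gained 4 of 5, against 64.2% lost and 39.2% gained over all JUNB peaks. Among the GEFs, JUNB peaks of 9.52 at Dennd1a and 4.72 at Dennd4c were listed after IL-4 only, as were 2 at Dennd1b with 5.15 as the higher. All 3 encode DENN domain exchange factors. At the endosomal tether Eea1, a Rab5 effector, the highest JUNB score was 21.1 in control and 10.03 after IL-4, while its highest C/EBPα score was 148 and 189.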

How the data were processed

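Each sample was 1 chromatin immunoprecipitation library of macrophages. The authors aligned reads to mm10 with BWA (0.7.10) and SAMtools (0.1.19), called peaks per sample with MACS2 (2.0.10) under a q-value limit, removed blacklisted regions and annotated peaks with HOMER (4.2), as the submitters' processing notes and the study's methods give it. The control library and the kit used for each sample were not given in the sources used here. No unit is stated for the score of a peak in the deposited files, and the deposited distance to the nearest TSS is in bp. Depth is unknown.

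From these files, peaks were selected by gene name, and the peaks of a factor counted as kept when they overlapped by 1 bp or more. Pairs were formed one to one by largest overlap. Peaks of all lists were merged into regions where they touched, and the highest score of each list stands for a region. With 1 sample per group no test was run, and counts are set beside all peaks of the same list. Wilson intervals (95%) cover counting error only. Sequences were read from RefSeq GRCm38, which has the mm10 coordinates, and that of 1 gained IRF8 peak is not reported here. Overlap, merging and motif code was tested on simulated data, with 16 of 16 checks passed. Tools were Python 3.11.15, pandas 2.3.3, numpy 2.4.6, scipy 1.17.1 and matplotlib 3.10.9.

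The members, the gene groups and the partner list were chosen with earlier results of these data known. Genes were named when they had a promoter peak, were among the 10 with most regions, had all 3 factors in both conditions, or had a peak among the 3 highest, the 3 highest gained or lost, or the 3 largest rises or falls past 2-fold. The exceptions, named after their values were seen, are the other peaks listed with them in the gene groups, the gene names present in 1 condition only, and the partner genes.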

Additional observations from a re-analysis of the deposited data

How the results depend on the processing

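Of 100 values recomputed for 20 results, 80 stayed within the interval of the reported value or within 1.5 times the reported count. Percentile ranks, on another scale, were judged by the sign of the median and by whether its interval held 0. Reversals of sign were not labelled. With control scores of 10 or more the IRF8 median log2 ratio went from 0.09 to -0.02 (-0.31 to 0.09). The C/EBPα median went from -0.04 to -0.14 (-0.27 to 0.12). That limit acts on the control score, by which the ratio divides, so the selection alone can lower the median. It was not applied to all pairs, so no dependence on peak strength can be read from it. Counting only peaks with a score of 10 or more raised the kept share to 97.8% for C/EBPα and 95.6% for IRF8. The limit was set on the counted peak only, and the peak it overlapped could have any score. The lost peaks were then 1, 2 and 1 and the gained peaks 1, 6 and 0 for C/EBPα, IRF8 and JUNB. These values were not recomputed over all peaks, so they have no background at that limit. Of all control peaks in the middle and highest-scoring tertiles, 85.0% and 99.7% were kept for C/EBPα and 84.0% and 99.4% for IRF8. With that limit the promoter share of IRF8 Rab peaks after IL-4 was 5.0%. With only peaks of 10 or more left in every list, regions with all 3 factors numbered 2 in control and 0 after IL-4. Taking every peak within 2000 bp of a TSS as a promoter peak gave shares of 17.1% for C/EBPα in control (13.7% of the list), 23.2% for IRF8 in control (14.1%) and 22.2% for IRF8 after IL-4 (16.6%), and the interval of IRF8 in control, 16.4 to 31.8, then lay above its list. Percentile ranks in place of scores gave IRF8 pairs a median rise of 3.13 percentile points (0.12 to 6.94), against 1.57 over all IRF8 pairs. Requiring overlap of 50% of the shorter peak left 18.2% of JUNB Rab peaks kept and 4 gained. Lists matched in length gave 2 lost and 2 gained JUNB peaks and 3 regions with all 3 factors in control. Counting peaks up to 200 bp apart as shared, an alternative chosen after seeing the data, kept every count within 1.5 times the reported one. No paired analysis was possible because each factor and condition had 1 sample and the labels carry no replicate numbers. Depth, kit and background of the libraries cannot be told apart from IL-4, peaks are named by the nearest TSS, and C/EBPα and IRF8 peaks of low score were lost or gained most often.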
